A study of Oryza sativa with 9 samples.

Results

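The genes described here are 3 rice genes named after the opaque, chalky grain of their mutants: PPDK (also called FLO4, LOC_Os05g33570), FLO2 (LOC_Os04g55230) and FLO6 (LOC_Os03g48170). They were chosen by locus, and all 3 are among the 31263 loci of the deposited expression table. RNA was taken from dehulled seeds 10 to 14 days after flowering, from plants kept at 27 °C in a cycle of 12 h of light and 12 h of darkness. There were 3 genotypes with 3 biological repeats each. The wild type is labelled with no further detail. EM1084 carries the change E503K in the Tudor-SN protein, an RNA-binding protein that carries staphylococcal nuclease and Tudor domains. The last genotype, pHL8042/EM1084, is EM1084 with a transgene that supplies wild type OsTSN and is called the complemented line here; it therefore still carries the EM1084 mutation. A single mutant line and a single transgenic line label were profiled, so other features of those lines cannot be told apart from the mutation and the transgene.

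A floury endosperm is one whose starch granules are loosely packed, so that light scatters and the grain looks white. PPDK, pyruvate orthophosphate dikinase, interconverts pyruvate and phosphoenolpyruvate (PEP) and so links glycolysis to amino acid and lipid synthesis in the filling grain; the rice gene can give a plastid and a cytosolic form, which the table does not separate. FLO2 is a protein with tetratricopeptide repeats, a fold that holds other proteins, and rice flo2 mutants have lower transcript levels of storage protein and starch synthesis genes. FLO6 is a starch-binding protein of the plastid that binds the debranching enzyme isoamylase ISA1 and is needed for normal compound starch granules.

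PPDK lies on chromosome 5 from 19718506 to 19737857 on the minus strand, FLO2 on chromosome 4 from 32835169 to 32848481 on the plus strand, and FLO6 on chromosome 3 from 27408274 to 27413242 on the plus strand, in the coordinates printed in the table, for which the sources used here name no genome build. No other listed locus overlaps any of the 3. The transcript lengths that fit the RPKM steps were 3622 bases for PPDK, 5705 for FLO2 and 2067 for FLO6.

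Mapped reads per library, derived from the steps of the RPKM values, ran from 5778627 to 10551055 in wild type, from 12805472 to 15630870 in EM1084 and from 17022681 to 18449248 in the complemented line. RPKM scales the reads of a locus to its transcript length and to the mapped total, so it is a share of the library. As a check of the labels, OsTudor-SN (LOC_Os02g32350) stood at 92.3 ± 4.73, 213 ± 7.51 and 368 ± 20.3 RPKM in wild type, EM1084 and the complemented line (SD, n = 3 each); a point mutation need not change that level. The median log2 fold change of all 15450 genes tested stood at 1.06 between EM1084 and wild type, at -0.34 between the complemented line and EM1084, and at 0.73 between the complemented line and wild type. A gene that keeps pace with the median therefore rises in RPKM in both mutant-background lines, and changes are given below both as deposited and relative to that median.

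PPDK was the most abundant of the 3 genes, was lowest in wild type, highest in EM1084 and in between in the complemented line. Its 3 wild type values were 271, 273 and 257 RPKM, its EM1084 values 886, 830 and 938 RPKM, and its values with the transgene 536, 578 and 615 RPKM. No library of one genotype overlapped those of another. Means in the same order were 267 ± 8.4, 885 ± 53.8 and 576 ± 39.5 RPKM (SD, n = 3 each). PPDK rose 3.31-fold in EM1084 against wild type (log2 fold change 1.72, SE 0.08, limma adjusted p = 5.3e-10). Of all genes tested, 88.1% were called there, 82.7% as higher and 5.33% as lower, and 87.5% had groups that did not overlap, so a call or a separation by itself says little. Relative to the median of all genes PPDK lay 0.66 higher on the log2 scale, above 81.6% of the genes tested. That distance depended on the pseudocount of 1 added to RPKM. With 0.1 added it was 0.26, above 60.1% of the genes, and by limma-voom on derived reads 0.23, above 58.6%. Against EM1084 the complemented line was 1.54-fold lower (log2 fold change -0.62, SE 0.08, limma adjusted p = 2.1e-05), where 55.5% of all genes were called, 10.2% as higher and 45.3% as lower, and 65.6% had groups apart. Relative to the median this was -0.28. Against wild type the complemented line stayed 2.16-fold higher (log2 fold change 1.10, SE 0.08, limma adjusted p = 5.8e-08), or 0.37 above the median, with 79.4% of all genes called, 72.0% as higher and 7.37% as lower, and 78.7% with groups apart. With 0.1 added PPDK lay only 0.04 above the median there, and by limma-voom 0.03. By the median of ratios the rise in EM1084 was 0.32 (limma adjusted p = 0.00053), and the difference between the complemented line and wild type was 0.12 and not called (adjusted p = 0.089). By that scaling 31.4% of all genes were called higher in EM1084 than in wild type. The joint limma test of any difference among the 3 genotypes called PPDK (adjusted p = 1.5e-09), FLO2 (2.1e-06) and FLO6 (9.4e-06), as it did 93.0% of all genes tested. With these levels PPDK ranked between 118 and 119 by RPKM among all listed loci in wild type, between 48 and 53 in EM1084, and between 79 and 85 with the transgene.

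FLO2 behaved differently: on RPKM as deposited its level was slightly lower in EM1084 than in wild type, and it was lowest in the complemented line. It read 239, 255 and 230 RPKM in wild type, 222, 217 and 216 in the EM1084 mutant, and 145, 148 and 153 in the line with the transgene. The EM1084 libraries lay just below the wild type libraries, and the complemented libraries lay below all others. Means were 241 ± 12.7, 218 ± 2.85 and 149 ± 4.19 RPKM (SD, n = 3 each). The difference between EM1084 and wild type did not pass on RPKM as deposited (log2 fold change -0.14, SE 0.07, limma adjusted p = 0.077), and it passed with limma-voom on derived reads (-0.15, adjusted p = 0.026) and without wild type 3 (-0.18, adjusted p = 0.049). With the libraries scaled otherwise FLO2 was called lower in EM1084 by more, at -1.55 by the median of ratios (adjusted p = 1.4e-09), -1.17 outside the 100 most abundant loci (9e-09) and -0.76 by quantile normalization (4.6e-07). Of all genes tested, 27.4%, 18.1% and 27.3% were called lower there under these 3 scalings. Since most genes were higher in EM1084, FLO2 lay 1.21 below the median of all genes, with 7.33% of the genes tested having a lower log2 fold change. FLO2 fell in the complemented line, 1.47-fold against EM1084 (log2 fold change -0.55, SE 0.07, limma adjusted p = 3.3e-05), or -0.21 relative to the median, and 1.62-fold against wild type (log2 fold change -0.69, SE 0.07, limma adjusted p = 2e-06), or -1.43 relative to the median. In the last comparison 3.99% of the genes tested lay lower. With the other 3 scalings, a pseudocount of 0.1 and limma-voom, that share ran from 3.17% by the median of ratios to 8.88% by quantile normalization. In EM1084 against wild type it ran from 5.1% to 14.3% by the same 2 scalings. Among all listed loci FLO2 ranked between 128 and 133 in wild type, between 209 and 229 in EM1084, and between 254 and 261 with the transgene.

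FLO6 was a low transcript in every library and had more RPKM in both lines of the mutant background than in wild type, although other scalings of the libraries removed or turned that difference. It read 2.84, 3.35 and 3.01 RPKM in wild type, 7.29, 6.86 and 6.99 in the EM1084 mutant, and 7.32, 5.95 and 6.34 in the line with the transgene. All wild type libraries lay below the others, while EM1084 and the complemented line overlapped. These values rest on 36 to 64 reads in the wild type libraries, 193 to 226 in EM1084 and 223 to 273 in the complemented line. In wild type 3, the shallowest library, 36 reads give an exact Poisson 95% interval of 2.11 to 4.17 RPKM, which covers counting error only. Means were 3.07 ± 0.257, 7.05 ± 0.222 and 6.54 ± 0.703 RPKM (SD, n = 3 each). On RPKM as deposited FLO6 rose 2.3-fold in EM1084 (log2 fold change 0.99, SE 0.13, limma adjusted p = 6.7e-06) and 2.13-fold in the complemented line against wild type (0.89, SE 0.13, limma adjusted p = 2.9e-05). These log2 fold changes are on the log2(RPKM + 1) scale, which understates changes of low genes; with a pseudocount of 0.1 they were 1.18 and 1.06. With the pseudocount of 1, FLO6 stood at -0.08 and 0.15 relative to the median of all genes. In these comparisons 45.4% and 60.0% of the genes tested lay lower. With 0.1 added FLO6 stood at -0.29 relative to the median in EM1084 against wild type, with 37.7% of the genes lower. In the complemented line against wild type FLO6 and the median were then both at 1.06. The rise of FLO6 was thus close to that of the median gene in the complemented line. In EM1084 its distance from the median depended on the pseudocount. Between the complemented line and EM1084 the log2 fold change was -0.10 (SE 0.13, limma adjusted p = 0.52).

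**Figure D1:**
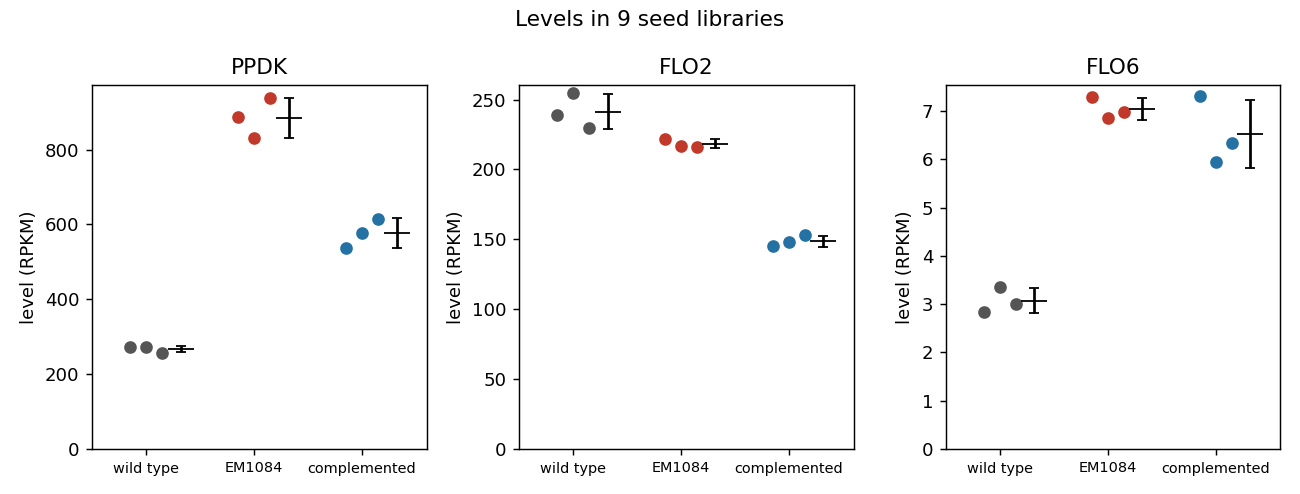
Level of PPDK, FLO2 and FLO6 in RPKM (y axis, from 0) in each of 9 seed libraries by genotype (x axis); points are libraries, and the bar beside them is the mean with SD over 3 libraries. PPDK is highest in EM1084 (830 to 938), FLO2 is lowest in the complemented line (145 to 153), and FLO6 is lowest in wild type (2.84 to 3.35).

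**Figure D2:**
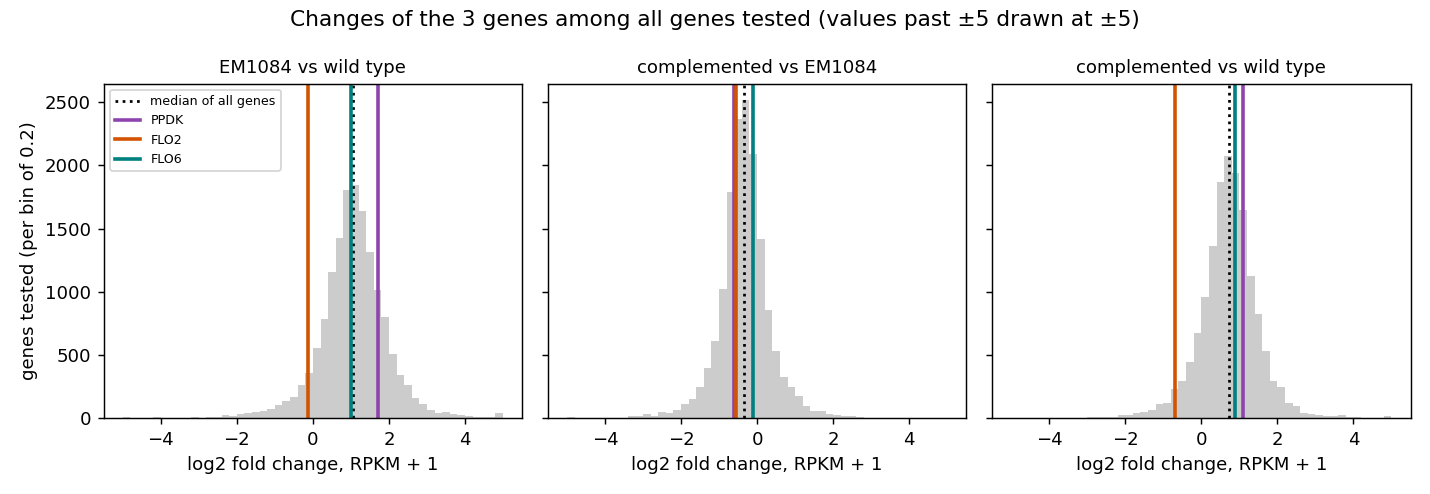
Number of genes tested (y axis) by log2 fold change of RPKM + 1 (x axis, bins of 0.2) in the 3 comparisons, with the median of all genes as a dotted line and the 3 genes as coloured lines. In EM1084 against wild type PPDK (1.72) lies above the median of 1.06, FLO6 (0.99, below 0 by the median of ratios and by quantile normalization) next to it and FLO2 (-0.14) in the lower tail.

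Levels per length followed the order PPDK, FLO2, FLO6 in all 9 libraries. In wild type PPDK and FLO2 were close, at 257 to 273 and 230 to 255 RPKM, and did not overlap. Dividing a whole library by 1 factor leaves the ratio of RPKM of 2 genes in it unchanged, while quantile normalization does not. The tests used log2 ratios of RPKM + 1, which also shift a little with such a factor where a gene is as low as FLO6. The PPDK to FLO2 ratio of RPKM was 1.13, 1.07 and 1.12 in wild type, 4.0, 3.82 and 4.34 in the EM1084 mutant, and 3.69, 3.9 and 4.01 in the line with the transgene. PPDK thus went from about level with FLO2 to 4.05 ± 0.263 and 3.87 ± 0.161 times its level, and the last 2 groups overlapped (exact permutation p = 0.5 between them). The joint exact permutation p over 280 splits was 0.0179, or 0.0716 after Benjamini-Hochberg adjustment over the 12 ratio tests. Each of the 3 libraries of EM1084 and of the complemented line lay above the 3 of wild type, with an exact permutation p of 0.1 in both comparisons, the smallest that 3 against 3 allows. Ratios between other pairs of genes were not examined, so how often such ratios separate the genotypes is not known. Of single genes, 87.5% had groups apart in EM1084 against wild type and 78.7% in the complemented line against wild type.

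The FLO2 to FLO6 ratio was 84.1, 76.2 and 76.3 in wild type, 30.4, 31.7 and 30.9 in the EM1084 mutant, and 19.8, 24.9 and 24.2 in the line with the transgene. These 3 groups were separate from each other (joint exact permutation p = 0.00357, the smallest that 280 splits can give, adjusted p = 0.0428; pairwise exact permutation p = 0.1 each). The PPDK to FLO6 ratio was 95.3, 81.5 and 85.4 in wild type, 122, 121 and 134 in EM1084, and 73.2, 97.0 and 97.0 in the line with the transgene. It was highest in EM1084 without overlap, and the complemented line overlapped wild type (joint exact permutation p = 0.00714, adjusted p = 0.0428; complemented against wild type exact permutation p = 0.2). The 9 pairwise ratio tests had adjusted p values of 0.12 or more. For these ratios too, no other pairs of genes were set beside them, so their separation is not shown to be particular to the 3 genes. By quantile normalization the log2 difference in PPDK/FLO2 between the complemented line and EM1084 was -0.77 without overlap (-0.07 as deposited), and the rise of PPDK/FLO6 in EM1084 over wild type was 1.84 (0.74 as deposited, 0.49 by the median of ratios). FLO2/FLO6 in EM1084 against wild type was -0.55 by quantile normalization (-1.13 as deposited). None of the 9 pairwise differences changed sign under the 3 other scalings.

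**Figure D3:**
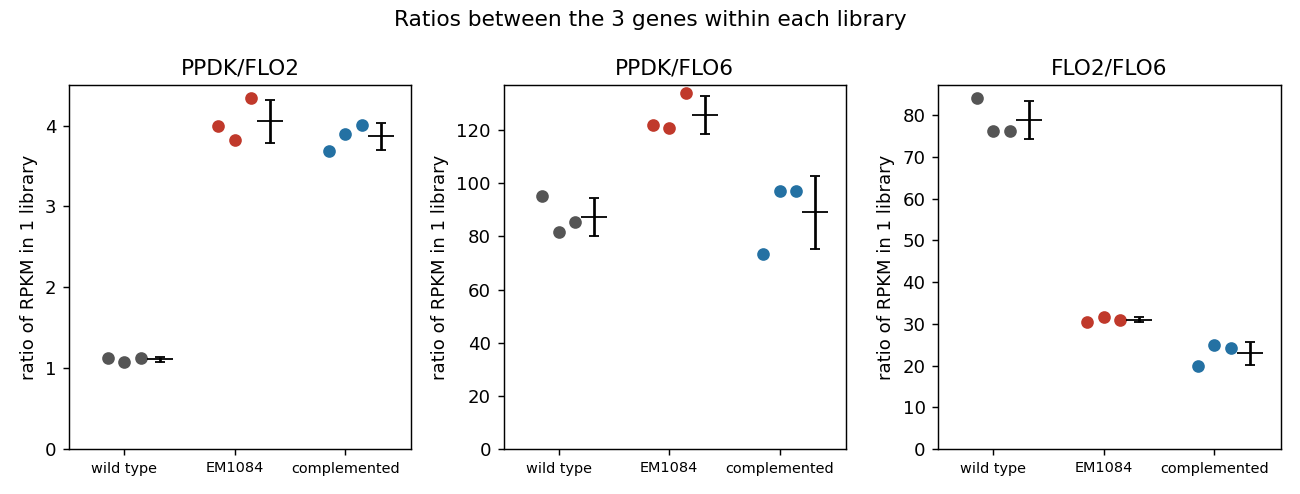
Ratio of RPKM between 2 of the genes in the same library (y axis, from 0) by genotype (x axis); points are libraries, and the bar beside them is the mean with SD over 3 libraries. PPDK/FLO2 is 1.07 to 1.13 in wild type and 3.69 to 4.34 in both other lines, and FLO2/FLO6 drops from 76.2 to 84.1 in wild type to 19.8 to 31.7.

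How the libraries are scaled decides part of these results. In EM1084 against wild type PPDK was higher and FLO2 lower than wild type under each of the 4 scalings tried. For PPDK the log2 fold change was 1.72 as deposited, 0.69 with libraries scaled outside the 100 most abundant loci, 0.32 by the median of ratios and 1.62 by quantile normalization, each called. For FLO2 the same values were -0.14, -1.17, -1.55 and -0.76, called in the last 3. In the same order of scalings 82.7%, 47.2%, 31.4% and 28.1% of all genes were called higher there. The shares called lower were 5.33%, 18.1%, 27.4% and 27.3%. FLO6 was called only as deposited (0.99), stood at 0.14 outside the abundant loci, and turned to -0.17 by the median of ratios and -0.22 by quantile normalization. In the complemented line against wild type FLO2 was called lower under all 4 scalings (-0.69, -1.31, -1.68 and -0.95), while PPDK lost its call by the median of ratios (0.12, adjusted p = 0.089). FLO6 kept its call outside the abundant loci (0.40, adjusted p = 0.018) and lost it by the median of ratios (0.09, adjusted p = 0.59) and by quantile normalization (0.05, adjusted p = 0.75). In this comparison 72.0%, 46.1%, 29.0% and 26.3% of all genes were called higher under the 4 scalings. The shares called lower were 7.37%, 16.6%, 25.6% and 25.4%. Against EM1084, PPDK was called lower in the complemented line under all 4 scalings (-0.62, -0.20, -0.19 and -0.96), and FLO2 as deposited and by quantile normalization (-0.55 and -0.19) but not by the other 2 (-0.14 and -0.13, adjusted p = 0.073 and 0.097). Of all genes, 45.3%, 19.8%, 18.5% and 20.5% were called lower there under the 4 scalings.

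**Figure D4:**
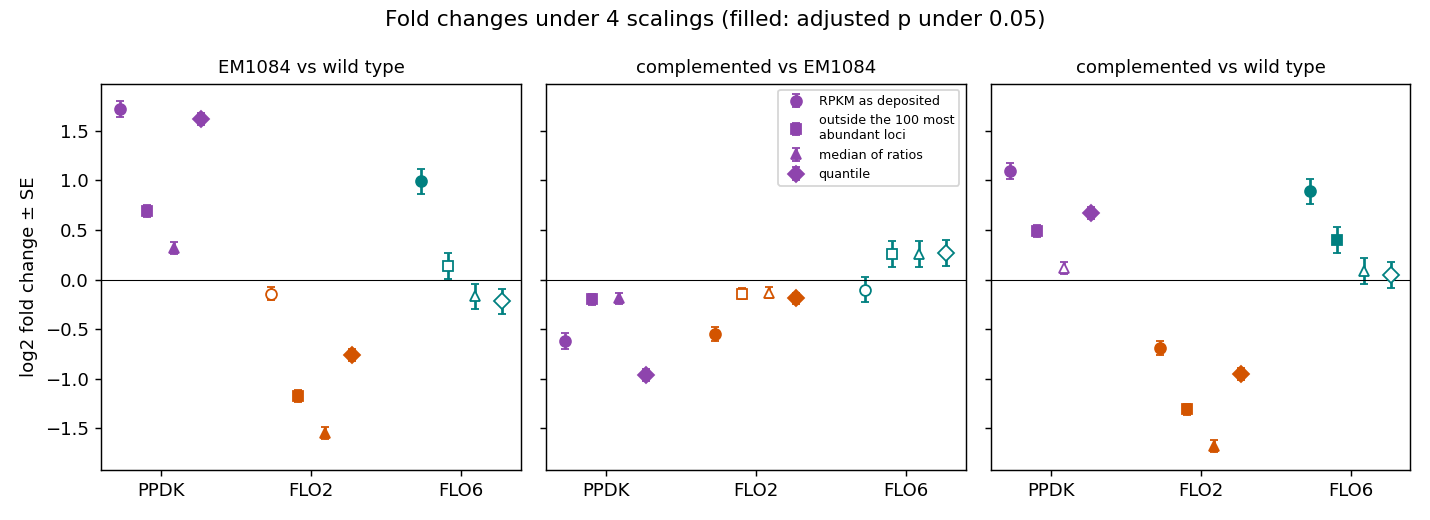
Log2 fold change with its SE (y axis) of PPDK, FLO2 and FLO6 (x axis) in the 3 comparisons, under RPKM as deposited and 3 other scalings (marker shapes); filled markers passed an adjusted p of 0.05. FLO2 is below 0 in all 12 cases, and FLO6 is on both sides of 0 in EM1084 against wild type.

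Other genes whose rice mutants have floury or chalky grain were taken as a list of 20, of which 18 could be tested; FLO10 and FLO18 were too low. In EM1084 16 of the 18 were called higher, 0 lower and 2 did not pass, where 82.7% of all genes were called higher and 5.33% lower, with a median log2 fold change of 1.05 beside 1.06 over all genes tested. This split depended on scaling and was 6 higher and 7 lower by the median of ratios (31.4% and 27.4% of all genes), 9 and 4 by quantile normalization (28.1% and 27.3%), and 7 and 2 outside the abundant loci (47.2% and 18.1%). FLO2 had the lowest log2 fold change of the 21 floury genes tested, the 3 genes included, in EM1084 against wild type and in the complemented line against wild type, under all 4 scalings. PPDK was number 15 from the lowest and FLO6 number 10 in EM1084 against wild type as deposited.

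Of the list, AlaAT1 (FLO12, LOC_Os10g25130), an alanine aminotransferase that also uses pyruvate, rose from 101 ± 8.52 to 444 ± 21.1 RPKM in EM1084 (log2 fold change 2.12, limma adjusted p = 2.2e-10) and stood at 247 ± 15.2 RPKM in the complemented line. FLO16 (LOC_Os10g33800), a cytosolic malate dehydrogenase, rose from 130 ± 6.2 to 476 ± 16.4 RPKM (1.87, adjusted p = 2.5e-10) and was 247 ± 15 RPKM in the complemented line. Both were called higher in EM1084 than in wild type, and lower in the complemented line than in EM1084, under all 4 scalings, as PPDK was. PFP1 (LOC_Os06g13810), the beta subunit of the pyrophosphate-dependent phosphofructokinase, rose from 11.8 ± 2.1 to 86.8 ± 1.85 RPKM and read 28.6 ± 4.1 RPKM in the complemented line. PK2 (LOC_Os07g08340), a plastid pyruvate kinase, rose from 4.02 ± 0.509 to 24.5 ± 2.46 RPKM in EM1084 and was 18.9 ± 1.23 RPKM in the complemented line (log2 fold change against wild type 1.99, adjusted p = 1.4e-08). FLO20 (LOC_Os01g65410), a serine hydroxymethyltransferase, read 5.15 ± 0.414, 21.3 ± 0.488 and 23.7 ± 1.29 RPKM in the 3 genotypes. FLO11 (LOC_Os12g14070), a plastid HSP70 chaperone and the most abundant of the list, read 1130 ± 67.3, 1580 ± 53.9 and 1180 ± 6.74 RPKM. Its log2 fold change in EM1084 was 0.48 as deposited and -0.93 by the median of ratios, so its direction depended on scaling.

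In the complemented line against EM1084, 2 of the 18 were called higher (FLO7 and FLO19), 10 lower and 6 did not pass (10.2% and 45.3% of all genes higher and lower), with a median of -0.38 beside -0.34 over all genes. By the median of ratios the split was 4 higher and 5 lower (18.4% and 18.5% of all genes), outside the abundant loci also 4 and 5 (18.9% and 19.8%), and by quantile normalization 4 and 6 (20.6% and 20.5%). Against wild type 15 were called higher, 0 lower and 3 did not pass (median 0.69 beside 0.73), where 72.0% of all genes were higher and 7.37% lower. This became 6 higher and 5 lower by the median of ratios (29.0% and 25.6% of all genes), 9 and 1 by quantile normalization (26.3% and 25.4%), and 8 and 2 outside the abundant loci (46.1% and 16.6%).

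**Figure D5:**
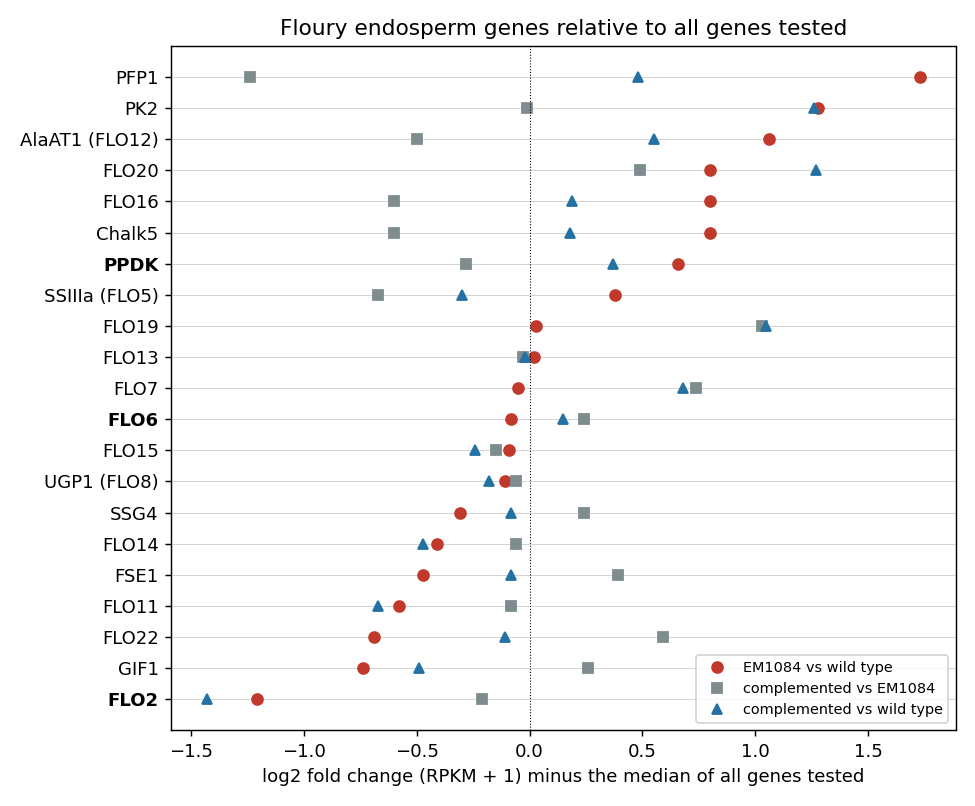
Log2 fold change of RPKM + 1 minus the median of all genes tested (x axis) for the 21 floury endosperm genes tested (y axis), in the 3 comparisons (marker shapes), sorted by EM1084 against wild type. FLO2 is lowest in EM1084 and in the complemented line against wild type (-1.21 and -1.43), and PPDK lies at 0.66 and 0.37.

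Genes that make or use PEP and pyruvate, the substrates of PPDK, or act close to them, as FLO16 does, were a second list of 26, with 22 tested. The lists overlap: AlaAT1 and FLO16 are among its genes that also stand in the floury list. SSIIIa (FLO5) stands in both the floury list and the starch list described below. The counts of the lists are therefore not independent. In EM1084 20 were called higher, 0 lower and 2 did not pass, beside 82.7% of all genes higher and 5.33% lower, with a median log2 fold change of 1.36, or 0.29 above all genes. The split was 11 and 3 by the median of ratios (31.4% and 27.4% of all genes), 11 and 4 by quantile normalization (28.1% and 27.3%), and 16 and 1 outside the abundant loci (47.2% and 18.1%). PPDKA (LOC_Os03g31750), the other rice PPDK gene, was far lower than PPDK, at 0.75 ± 0.238 RPKM in wild type, 7.86 ± 0.745 in the EM1084 mutant, and 9.52 ± 2.04 in the line with the transgene. PPDKA rose in both lines against wild type under all 4 scalings (log2 fold change as deposited 2.34 and 2.58, limma adjusted p = 2.8e-08 and 2.9e-08). The sources used here do not say how reads matching both PPDK genes were assigned, so low PPDKA levels are uncertain. The PPDK regulatory protein gene (LOC_Os07g34640), whose product switches PPDK off by phosphorylation and on by removing that phosphate, was low, at 0.914 ± 0.497, 1.7 ± 0.3 and 2.48 ± 0.691 RPKM. Its log2 fold change in EM1084 was 0.53 as deposited (limma adjusted p = 0.033) and -0.24, -0.46 and -0.03 by the median of ratios, by quantile normalization and outside the abundant loci.

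An enolase gene on chromosome 3 (LOC_Os03g14450), whose product makes PEP, rose from 6.43 ± 0.424 to 80.8 ± 2.57 RPKM in EM1084 (log2 fold change 3.46, limma adjusted p = 2.2e-11) and was 34.5 ± 4.15 RPKM in the complemented line. A second enolase gene on chromosome 10 (LOC_Os10g08550) read 114 ± 5.41, 292 ± 3.82 and 109 ± 16.1 RPKM and fell in the complemented line against EM1084 under all 4 scalings (-1.42 as deposited, limma adjusted p = 1.1e-07). A cytosolic pyruvate kinase gene on chromosome 12 (LOC_Os12g05110) read 16.2 ± 0.893, 71.7 ± 7.11 and 28.3 ± 2.19 RPKM. PEPCK1 (LOC_Os03g15050), PEP carboxykinase, differed from these: it read 5.41 ± 0.535, 11.3 ± 1.13 and 26 ± 1.76 RPKM and was highest in the complemented line (log2 fold change against wild type 2.07, limma adjusted p = 8.6e-09), a rise called under all 4 scalings. In the complemented line against EM1084 4 of the 22 were called higher and 11 lower, beside 10.2% and 45.3% of all genes, with a median of -0.28 beside -0.34 over all genes. The split was 5 and 7 under each of the other 3 scalings. Shares of all genes were 18.4% and 18.5% by the median of ratios, 20.6% and 20.5% by quantile normalization, and 18.9% and 19.8% outside the abundant loci. Against wild type 19 were higher and 0 lower, beside 72.0% and 7.37% of all genes, with a median of 1.08 beside 0.73. The split was 13 and 2 by the median of ratios (29.0% and 25.6% of all genes), 10 and 3 by quantile normalization (26.3% and 25.4%), and 15 and 1 outside the abundant loci (46.1% and 16.6%).

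Starch synthesis genes, the pathway in which FLO6 acts, were another list of 28, of which 27 were found in the table and 25 tested. In EM1084 16 were called higher, 2 lower and 7 did not pass, beside 82.7% of all genes higher and 5.33% lower, and the median was 0.59, or -0.48 relative to all genes. The split was 3 higher and 18 lower by the median of ratios (31.4% and 27.4% of all genes), 11 and 9 by quantile normalization (28.1% and 27.3%), and 6 and 14 outside the abundant loci (47.2% and 18.1%). ISA1 (LOC_Os08g40930), the FLO6 partner, read 166 ± 14.5, 200 ± 6.78 and 471 ± 12.9 RPKM. ISA1 rose in the complemented line against EM1084 and against wild type under all 4 scalings (1.23 and 1.5 as deposited, limma adjusted p = 6.2e-08 and 6.1e-09), where FLO6 had -0.10 and 0.89. Its change in EM1084 was 0.27 as deposited and -1.13, -0.42 and -0.75 by the median of ratios, by quantile normalization and outside the abundant loci. The gene AGPL1 (LOC_Os05g50380) for a large ADP-glucose pyrophosphorylase subunit fell in EM1084 from 73.3 ± 3.22 to 19.1 ± 0.907 RPKM (log2 fold change -1.89, limma adjusted p = 2.2e-09) and stood at 89.9 ± 11.4 RPKM in the complemented line (2.17 against EM1084, adjusted p = 2.9e-09), both called under all 4 scalings. SSIIIa (FLO5, LOC_Os08g09230), a starch synthase whose mutant is also floury, read 126 ± 8.46, 344 ± 6.16 and 171 ± 23.6 RPKM. SSI (LOC_Os06g06560), another starch synthase, read 96.4 ± 3.14, 284 ± 11.8 and 180 ± 25.9 RPKM, and AGPS1 (LOC_Os09g12660), a small subunit of ADP-glucose pyrophosphorylase, 56.9 ± 4.28, 128 ± 4.2 and 159 ± 3.75 RPKM. The most abundant of the list were AGPS2 (LOC_Os08g25734), the main endosperm small subunit, at 2360 ± 131, 2760 ± 125 and 2560 ± 157 RPKM, and BT1, the ADP-glucose transporter of the plastid envelope. BT1 (LOC_Os02g10800) read 2240 ± 112, 2310 ± 572 and 1600 ± 54.9 RPKM. The levels of SSIIIa, SSI, AGPS1, AGPS2 and BT1 are RPKM as deposited. The median of ratios divides wild type RPKM by 0.5521 to 0.6001 and EM1084 RPKM by 1.532 to 1.558. Rises of these genes in EM1084 are therefore smaller, or turned, by that scaling. Against EM1084 the complemented line had 10 higher and 7 lower, where 10.2% of all genes were higher and 45.3% lower, with a median of 0.02 beside -0.34 over all genes. The split was 13 and 2 by the median of ratios (18.4% and 18.5% of all genes) and outside the abundant loci (18.9% and 19.8%). By quantile normalization it was 11 and 4 (20.6% and 20.5%). Against wild type the complemented line had 20 higher and 2 lower, where 72.0% of all genes were higher and 7.37% lower, with a median of 0.75 beside 0.73. The split was 7 and 13 by the median of ratios (29.0% and 25.6% of all genes), 15 and 4 by quantile normalization (26.3% and 25.4%), and 11 and 7 outside the abundant loci (46.1% and 16.6%).

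On RPKM as deposited, the pattern of PPDK over the 9 libraries was a common one and that of FLO2 was not. The shift of most genes between the genotypes enters this likeness, which was not repeated under the other scalings. Likeness was Pearson's r of log2(RPKM + 1) over the 9 libraries, which share the scaling of RPKM, among the 7470 tested genes with a mean of at least 5 RPKM. For PPDK 2583 of them had r above 0.95, for FLO6 1365 and for FLO2 60. The gene most like PPDK was LOC_Os05g44050 (r = 0.999), the one most like FLO2 was LOC_Os04g33640 (r = 0.996), and the one most like FLO6 was LOC_Os01g68760 (r = 0.993). Among the 61 other tested genes of the 3 lists, the chromosome 3 enolase (r = 0.995) and the isoamylase gene ISA2 (r = 0.994) were most like PPDK, and a plastid pyruvate kinase gene (LOC_Os01g47080, r = 0.98) and PK2 (r = 0.976) most like FLO6. For FLO2 the nearest were BT1 (r = 0.774) and the chromosome 10 enolase (r = 0.369). PPDK and FLO6 had r = 0.94 with each other, and FLO2 had r = -0.34 with PPDK and -0.57 with FLO6.

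Seeds hold several tissues, and in bulk RNA fewer cells of a type and less RNA per cell cannot be told apart. The 8 markers of starchy endosperm were present in every library and summed to 76300 to 85400 RPKM in wild type, 42400 to 44200 in EM1084 and 92000 to 96500 in the complemented line. The storage protein genes GluA1, GluA2 and alpha-globulin carried that sum, and the 8 moved apart, with 3 called higher, 3 lower and 2 not called in EM1084 as deposited. Of all genes tested 82.7% were called higher there and 5.33% lower, and all 8 markers lay below the median log2 fold change of all genes. GluA1 (LOC_Os01g55690) averaged 34900, 15400 and 42800 RPKM, while BEIIb (LOC_Os02g32660), a starch branching enzyme gene, averaged 841, 1470 and 1490 RPKM; by the median of ratios both were lower in EM1084 (-2.59 and -0.61). Markers of embryo and aleurone, 7 genes with none at 0, summed to 1180 to 1280, 1680 to 2000 and 1840 to 2280 RPKM, and also moved apart: the oleosin gene OLE18 (LOC_Os03g49190) averaged 66.5, 986 and 876 RPKM, while the late embryogenesis gene Em (LOC_Os05g28210) averaged 500, 87.2 and 129 RPKM. Green tissue markers, 7 genes, summed to 2.78 to 3.84, 4.45 to 6.9 and 5.28 to 7.45 RPKM. RCA (LOC_Os11g47970) was at 0 in every wild type and complemented library, and had a median of 0 and at most 1 read (0.0913 RPKM) in EM1084. The endosperm sum, set by storage protein genes, was lowest in EM1084, where PPDK was highest. The embryo and green sums were higher in both lines where PPDK and FLO6 had more RPKM, as most genes were. Median log2 fold changes in EM1084 were 0.51 for the embryo and aleurone list and 0.25 for the 3 green genes tested, beside 1.06 over all genes. In the complemented line against wild type they were 1.0 and 0.34, beside 0.73. The part of these tissues in the results was not tested. Wild type was represented by the 3 shallowest libraries, and that depth difference cannot be told apart from genotype.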

How the data were processed

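Per the labels' protocols, libraries were made from total RNA of dehulled seeds with a ScriptSeq v2 kit. Per the file headers, the authors deposited RPKM for 31263 loci in 9 libraries; the sources used here name no aligner, counter, genome build or handling of shared reads. All 281367 values were whole reads within a tolerance of 0.001 once mapped totals and transcript lengths were derived from the RPKM steps (91.7% to 94.0% of mapped reads lay in listed loci; 0 of 2874 loci stayed whole with decoy totals). For a 1 kb transcript 1 read equals 0.0542 to 0.173 RPKM; intervals cover counting error only, since PCR copies were not marked by molecular identifiers.

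The filter kept 15450 genes reaching 1 RPKM in 3 or more libraries. Their log2(RPKM + 1) values entered 1 limma model (version 3.58.1, R 4.3.3, trended and robust variance) over the 9 libraries; tests were two-sided, adjusted by Benjamini-Hochberg over all genes tested, and called under 0.05. The 3 genes passed that filter in every library. The procedure was tested on simulated data in which few genes changed, as many up as down. That does not cover a shift of most genes, as seen here. Ratios were taken as log2 of (RPKM + 1) values and compared by two-sided exact permutation tests. Alternatives covered the pseudocount, the filter, 3 other scalings, limma settings, limma-voom, a replicate block and leaving out each library. All repeats differed by more than sampling noise. Whether they came from separate plants is not stated beyond "biological repeats".

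The genes, lists and tests were chosen with earlier results of these data known. List genes named are those of smallest adjusted p or highest mean per list, and those closest in function; FLO7, FLO19, GluA1, GluA2, alpha-globulin, BEIIb, OLE18, Em, RCA, FLO10 and FLO18 were named after their values were seen. Gene names come from general knowledge of rice, since the table holds none. Of 58 names of list genes looked up in the RefSeq gene table (ASM3414082v1), which shares 0 locus identifiers, 10 occur and 8 lie on the same chromosome. The 3 genes were looked up apart from these, PPDK under the name PPDKB. PPDK and FLO6 were found on the same chromosome, and FLO2 was not found. No sequence was used here.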

Additional observations from a re-analysis of the deposited data

How the results depend on the processing

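FLO6 had only 36 to 64 reads per wild type library, and without the shallowest library its rise in EM1084 was 0.98 (adjusted p = 2.4e-05). PPDK kept its direction in all 3 comparisons under every alternative run, and FLO2 too. Scaling changed calls, and the cause was not tested. In EM1084 against wild type FLO2 gained a call by the median of ratios (-1.55), quantile normalization (-0.76), scaling outside the 100 most abundant loci (-1.17) and limma-voom (-0.15), and ran from -0.18 to -0.10 with each library left out. FLO6 had -0.17, -0.22 and 0.14 under the first 3. In the complemented line against EM1084 FLO2 had -0.13 by the median of ratios and -0.14 outside the abundant loci, and FLO6 turned to 0.26, 0.27 by quantile normalization, and 0.26. Against wild type PPDK had 0.12 and FLO6 0.09 by the median of ratios, and FLO6 0.05 by quantile normalization. The joint adjusted p of FLO6 was 0.2 and 0.16 in these 2 scalings. With a pseudocount of 0.1, log2 ratio differences became 0.55 for PPDK/FLO6 in EM1084 against wild type (0.74 before), -1.32 for FLO2/FLO6 (-1.13 before), and -1.76 for FLO2/FLO6 in the complemented line against wild type (-1.58 before). Other scalings of the ratios were added after seeing the data. By quantile normalization PPDK/FLO2 had 2.38, -0.77 and 1.62 in EM1084 against wild type, complemented against EM1084 and complemented against wild type, PPDK/FLO6 had 1.84, -1.23 and 0.61, and FLO2/FLO6 had -0.55 and -1.01 in the first and last. By the median of ratios PPDK/FLO6 had 0.49 and FLO2/FLO6 -1.37 in the first, and FLO2/FLO6 -1.76 in the last; outside the abundant loci PPDK/FLO6 had 0.55 and FLO2/FLO6 -1.31 in the first.

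Genes called higher and lower numbered 12781 and 823 in EM1084 against wild type, 1573 and 7006 in the complemented line against EM1084, and 11124 and 1139 against wild type. By the median of ratios they were 4846 and 4226, 2844 and 2865, and 4473 and 3951; by quantile normalization 4341 and 4223, 3176 and 3163, and 4071 and 3932; outside the abundant loci 7294 and 2796, 2923 and 3058, and 7119 and 2572. List counts moved as follows, higher then lower. In EM1084 against wild type the floury list had 6 and 7 by the median of ratios, 9 and 4 by quantile normalization and 7 and 2 outside the abundant loci, the starch list 3 and 18, 11 and 9, and 6 and 14, and the PEP and pyruvate list 11 and 3, 11 and 4, and 16 and 1. In the complemented line against EM1084 the floury list had 4 and 5, 4 and 6, and 4 and 5, the starch list 13 and 2, 11 and 4, and 13 and 2, and the PEP and pyruvate list 5 and 7 each time. Against wild type the floury list had 6 and 5, 9 and 1, and 8 and 2, the starch list 7 and 13, 15 and 4, and 11 and 7, and the PEP and pyruvate list 13 and 2, 10 and 3, and 15 and 1.

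The replicate numbers did not pair the libraries (correlation of same-numbered deviations from the genotype means -0.03 to 0.06 over 15450 genes). With the replicate block FLO2 in EM1084 against wild type stayed at -0.14 (adjusted p = 0.12), genes called numbered 12779 higher and 816 lower in that comparison, and no call of the 3 genes changed.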
